A study of Mus musculus with 11 samples.

Results

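Epidermal cells make factors that draw Langerhans cells (LCs) into the epidermis, feed them and hold them there. A set of 10 such genes is described here in keratinocytes (KCs) and dendritic epidermal T cells (DETCs) of mice with and without LCs: Il34, Csf1, Tgfb1, Tgfb2, Tgfb3, Itgb6, Itgb8, Bmp7, Epcam and Gas6. They were chosen by name for their known roles, with earlier results of these data known, and their Ensembl identifiers were matched to mouse symbols. On GRCm38, Il34 lies at chr8:110741829-110805924, Bmp7 at chr2:172868012-172940321, Tgfb3 at chr12:86056745-86079041 and Itgb6 at chr2:60598292-60722643, all on the minus strand, and Epcam at chr17:87635979-87651129 on the plus strand. All 10 genes were found among the 52550 genes listed, and all 10 were among the 14419 genes that passed the filter on low values.

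KCs and DETCs were sorted from the flank skin epidermis of female mice aged 8 weeks, and their poly-A RNA was sequenced. LC-/- mice carry huLangerin-DTA, a transgene in which human langerin sequences drive the A subunit of diphtheria toxin, so that LCs are lost from birth. The controls were WT littermates without it. Both gates took cells without MHC-II, langerin or c-kit, which leaves out LCs and mast cells, and CD45 then split them into CD45- KCs and CD45+ DETCs. LCs themselves were not measured. There were 3 WT and 3 LC-/- KC libraries and 3 WT and 2 LC-/- DETC libraries, written W1 to W3 and L1 to L3 by the numbers in their labels. L1 has no DETC library here. The labels do not say that a number shared by a KC and a DETC library marks the same animal.

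IL-34 and CSF1 are the ligands of CSF1R, the receptor on which LCs depend, and keratinocyte IL-34 is the main one in resting skin. TGF-beta ligands are secreted in a latent form and TGF-beta1 keeps LCs in the epidermis. The alpha-v integrins that hold the Itgb6 or Itgb8 product release the active cytokine by binding the tripeptide Arg-Gly-Asp in its latency peptide. BMP7 promotes LC differentiation, EpCAM is an adhesion molecule of epithelia and of LCs, and GAS6 is a ligand of the TAM receptors Tyro3, Axl and Mertk, through which myeloid cells take up dying cells.

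The codons of that integrin-binding tripeptide separate the TGF-beta ligands, and they are shown because the ligands and the integrins are compared here. The stretches of 33 coding bases are from GENCODE mouse release 21 transcripts (GRCm38), 5′ to 3′ on the strand of the gene. Capitals mark the Arg-Gly-Asp codons, or in Tgfb2 the codons aligned to those of Tgfb3. The Tgfb1 stretch lies in exon 5 at chr7:25697130-25697162 (plus strand), the Tgfb3 stretch in exon 5 at chr12:86062153-86062185 (minus strand) and the Tgfb2 stretch in exon 6 at chr1:186630741-186630773 (minus strand).
Tgfb1: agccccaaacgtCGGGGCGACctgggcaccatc
Tgfb3: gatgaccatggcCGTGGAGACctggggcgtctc
Tgfb2: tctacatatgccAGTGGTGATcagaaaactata
Tgfb1 and Tgfb3 each held the tripeptide once in frame, and Tgfb2 held none in its reading frame.

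The libraries held 13491075 to 19750440 reads on genes, and the spread between replicates exceeded counting error (chi-square per degree of freedom 8.58 to 25.8). Cd207, which encodes langerin, had 6, 29 and 18 reads in WT KCs and 0 reads in the 3 LC-/- KC libraries. In DETC libraries it had 20, 20 and 48 reads in WT and 0 and 4 in LC-/-. All 20 keratinocyte markers were higher in KCs and all 17 DETC markers higher in DETCs, in both genotypes. The summed normalized count of 14 LC markers was 233 to 389 in WT KCs and 71.6 to 151 in LC-/- KCs, where 5 of the 14 were at 0 reads. In DETCs it was 9283 to 9743 in WT and 7793 to 7919 in LC-/-, but most of it came from Fcer1g (5627 to 5725 in WT, 4961 to 5202 in LC-/-) and Cx3cr1 (1632 to 1765 and 1330 to 1380), which had at most 4.32 and 2.59 counts in WT KCs. The MHC-II gene H2-Aa had 51.3 to 81.7 counts in WT and 4.85 and 9.95 in LC-/- DETCs. The part of LC RNA in the genotype differences given here was not tested. Melanocyte and fibroblast markers were low (sums of at most 461), endothelial markers summed to at most 46.4, and mast cell markers to at most 0.93.

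DETC libraries also held keratinocyte RNA. For each number with both libraries, the DETC value was expressed as a percentage of the KC value. The median over the 20 keratinocyte markers was 14.9% to 16.8% in W1 to W3, 25.6% in L2 and 14.9% in L3, and L2 therefore stood above the other 4. In these bulk samples, a smaller number of cells of a type and less RNA per cell cannot be told apart.

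In WT mice, 8 of the 10 genes were called higher in KC libraries, 1 was called higher in DETC libraries, and 1 did not pass the test. These are levels relative to the RNA of a library. Cell numbers were not measured, so the output of each population in the epidermis is not given. The genes higher in KCs were Il34, Csf1, Tgfb2, Itgb6, Itgb8, Bmp7, Epcam and Gas6, and the gene higher in DETCs was Tgfb1. Differences are log2 of the normalized count plus 1, KC minus DETC, with their SE, and were called at an adjusted p below 0.05 (limma, Benjamini-Hochberg over 14419 genes). Of all genes tested, 35.1% were called higher in KCs and 41% higher in DETCs. The median difference of the 10 genes was 1.68, beside -0.07 for all genes tested and 2.72 for the keratinocyte markers. In LC-/- mice, 7 of the 10 were called higher in KCs and 2 in DETCs, against 32.1% and 38.1% of all genes. Quantile normalization moved the median of all genes from -0.07 to 0.24 in WT and from -0.08 to 0.28 in LC-/- mice.

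**Figure D1:**
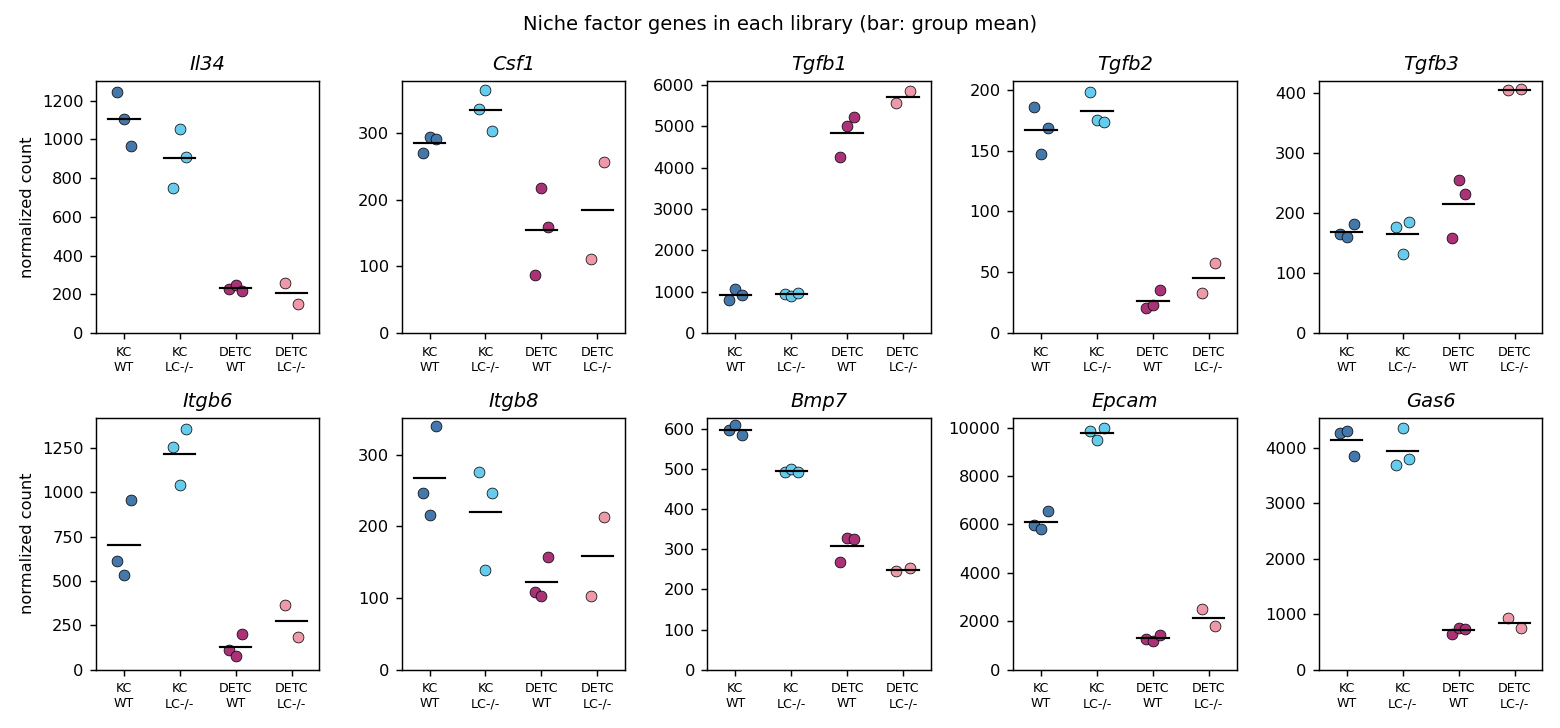
Normalized count (linear axis from 0) of each of the 10 genes in each library, 1 panel per gene, with KC WT, KC LC-/-, DETC WT and DETC LC-/- side by side (points are libraries, bars group means). Tgfb1 is the gene whose 5 DETC libraries stand far above its 6 KC libraries, and Epcam in KCs separates LC-/- (9484 to 9970) from WT (5799 to 6564).

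Of the CSF1R ligands, Il34 had 1247, 1108 and 964 normalized counts in WT KCs and 229, 250 and 219 in WT DETCs. Every KC library lay above every DETC library, and the difference was 2.24 (SE 0.11, adjusted p = 5.35e-08, limma). Csf1 had 271 to 294 counts in WT KCs and 87.3 to 218 in WT DETCs, a difference of 0.98 (SE 0.27, adjusted p = 0.00918). In LC-/- mice Csf1 had 303 to 364 counts in KCs and 112 and 257 in DETCs (0.97, SE 0.33, adjusted p = 0.0357). That call was lost without KC library L1, L2 or L3 (adjusted p 0.0592 to 0.0924) and without DETC library L2, where the difference was 0.38 (adjusted p = 0.108). DETC values of Il34 were 16.6% to 24.5% of the KC values, below the highest single keratinocyte marker in all 5 pairs, whereas those of Csf1 ran from 30.6% to 84.8% and lay above that marker in 3 of 5. The highest marker was Sbsn in every pair, and it stood at 32.6%, 61.9%, 46.4%, 58.7% and 36.8% in W1, W2, W3, L2 and L3. Values of Il34 lay above the marker median of their pair in 4 of 5, and those of Csf1 in all 5.

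Tgfb1 had 798, 1062 and 930 normalized counts in WT KCs and 4271, 5018 and 5227 in WT DETCs. DETCs were 5.21-fold higher in the fit (difference -2.38, SE 0.11, adjusted p = 5.77e-08), and DETC values were 473% to 618% of the KC values. Tgfb2 went the other way, with 147 to 185 counts in WT KCs and 20.7 to 35.0 in WT DETCs (2.65, SE 0.22, adjusted p = 3.33e-06). Tgfb3 did not pass the test in WT mice, with 165, 160 and 182 counts in KCs and 158, 255 and 232 in DETCs (-0.32, SE 0.18, adjusted p = 0.128). Without the DETC library of W1, the lowest of the 3, this difference was -0.52 (adjusted p = 0.00515). In LC-/- mice Tgfb3 was higher in DETCs, at 406 and 407 counts against 131 to 186 in KCs (-1.31, SE 0.18, adjusted p = 0.000685). Both Tgfb1 and Tgfb3 exceeded the highest keratinocyte marker in all 5 pairs.

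Levels of the ligand transcripts were compared with each other per kilobase of exon, merged over all annotated transcripts of a gene. The length of the transcripts expressed here was not measured, and all shares, ratios and ranks per kilobase depend on this choice. Tgfb1 made up 66.2% to 74.3% of the TGF-beta ligand in WT KCs and 92.6% to 94.4% in WT DETCs. The summed level per kilobase was 263 ± 22.5 (SD, n = 3) in WT KCs and 1028 ± 114 (SD, n = 3) in WT DETCs. Tgfb2, the ligand without the tripeptide, was 8.98% to 13.4% of the sum in WT KCs and at most 0.544% in WT DETCs.

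Both integrin genes were higher in WT KCs. Itgb6 had 613, 536 and 956 normalized counts in WT KCs and 113, 75.1 and 204 in WT DETCs (2.49, SE 0.33, adjusted p = 9.00e-05). Itgb8 had 216 to 340 counts in WT KCs and 102 to 158 in WT DETCs (1.12, SE 0.21, adjusted p = 0.000844). Its DETC values were 44.2% to 86.8% of the KC values. They lay above the highest keratinocyte marker in 3 of 5 pairs and above the marker median in all 5. In LC-/- mice the Itgb8 groups overlapped, with 139 to 277 counts in KCs and 103 and 213 in DETCs, and the difference of 0.51 (SE 0.40, adjusted p = 0.286) did not pass the test. Per kilobase, Itgb6 exceeded Itgb8 by 3.86 to 4.38 times in WT KCs and by 1.14 to 2.02 times in WT DETCs.

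Bmp7 had 597, 609 and 584 normalized counts in WT KCs and 268, 328 and 326 in WT DETCs (0.96, SE 0.10, adjusted p = 1.19e-05). Its DETC values, 44.9% to 55.7% of the KC values, lay above the highest keratinocyte marker in 3 of 5 pairs and above the marker median in all 5. Epcam had 5995, 5799 and 6564 counts in WT KCs and 1273, 1173 and 1451 in WT DETCs (2.24, SE 0.09, adjusted p = 1.82e-08). Gas6 had 3860 to 4307 counts in WT KCs and 653 to 747 in WT DETCs (2.54, SE 0.08, adjusted p = 3.47e-09). For Epcam (18.2% to 26.4%), Gas6 (15.3% to 21.4%), Tgfb2 (11.2% to 33.2%) and Itgb6 (13.4% to 35.2%), as for Il34, no DETC value reached the highest keratinocyte marker, Sbsn. The marker median of the pair was exceeded in all 5 pairs by Epcam, in 4 by Gas6 and in 3 each by Tgfb2 and Itgb6.

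**Figure D2:**
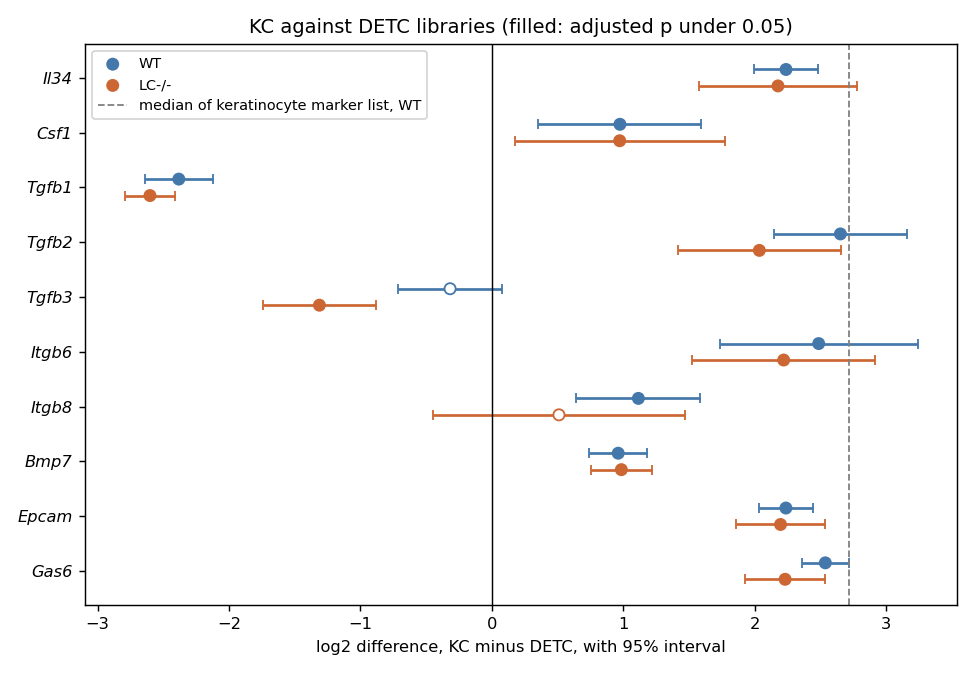
Log2 difference between KCs and DETCs (x axis, KC minus DETC, points with 95% intervals, filled where the adjusted p is under 0.05) for each gene in WT and LC-/- mice. The dashed line is the median of the 20 keratinocyte markers in WT mice, 2.72, and Tgfb1 lies on the DETC side at -2.38 and -2.60.

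**Figure D3:**
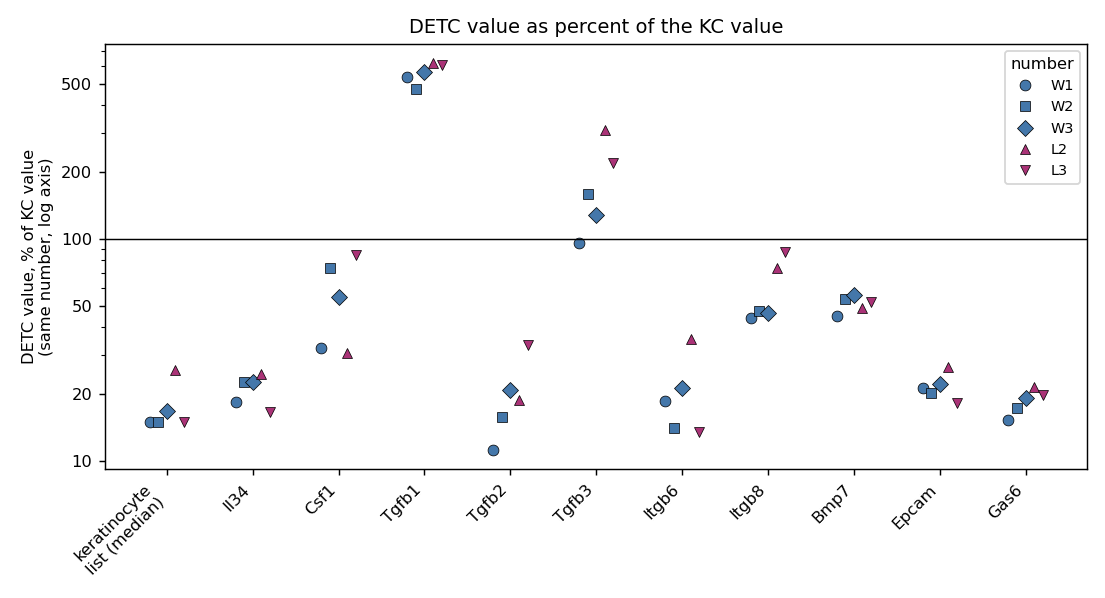
DETC value as a percentage of the KC value with the same number (log axis) for the median of the keratinocyte markers and for each gene, 1 symbol per number, WT in blue and LC-/- in purple. The 5 values of Tgfb1 lie between 473% and 618% and those of Gas6 between 15.3% and 21.4%, close to the marker medians of 14.9% to 25.6%.

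Ranked per kilobase in WT KCs, Epcam (2788 ± 181), Gas6 (1627 ± 97.2) and Il34 (565 ± 72.3) led, each without overlap with the next (SD, n = 3). Tgfb1 (184 ± 26.2), Bmp7 (149 ± 3.12) and Itgb6 (98.7 ± 31.4) followed, again without overlap. Csf1 (54.0 ± 2.43) and Tgfb3 (50.0 ± 3.42) overlapped, as did Tgfb2 (28.9 ± 3.29) and Itgb8 (24.2 ± 5.82). Il34 therefore exceeded its fellow CSF1R ligand Csf1 by 8.92 to 12.4 times per kilobase in WT KCs. In WT DETCs Tgfb1 (960 ± 99.7) led, before Epcam (592 ± 64.0), Gas6 (280 ± 20.6) and Il34 (119 ± 8.12), with no overlap between these neighbours. Epcam, Gas6 and Il34 did not reach the highest keratinocyte marker, Sbsn, in any DETC library. Epcam exceeded the marker median in 5 of 5 pairs and Gas6 and Il34 in 4, and the part of keratinocyte RNA in their ranks was not tested. Bmp7 (76.5 ± 8.37) and Tgfb3 (46.8 to 75.4, mean 63.6) overlapped in WT DETCs, as did Csf1 (29.3 ± 12.4), Itgb6 (18.4 ± 9.32) and Itgb8 (11.1 ± 2.72), each with the next, and Tgfb2 came last (4.54 ± 1.32).

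The remaining comparison asked whether the transcript levels of these factors differ when LCs are absent from birth. In KCs, 1 gene rose in LC-/- mice (Epcam), 1 fell (Bmp7) and 8 did not pass the test. In DETCs, 2 rose (Epcam and Tgfb3) and 8 did not pass the test. As background, 5.37% of all genes tested rose and 1.85% fell in KCs without LCs. The shares in DETCs were 3.13% and 0.43%. The libraries of the genotypes did not overlap for 4 of the 10 genes in KCs (31.5% of all genes) and for 5 of 10 in DETCs (37.9% of all genes). The median log2 difference of the 10 genes was -0.01 in KCs, as for all genes, and 0.27 in DETCs, beside 0.02 for all genes and 0.29 for the keratinocyte markers.

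Epcam was the gene that rose in both populations. In KCs it had 5995, 5799 and 6564 normalized counts in WT and 9869, 9484 and 9970 in LC-/- libraries. The groups lay well apart, and LC-/- KCs were 1.60-fold higher (log2 difference 0.68, SE 0.06, 95% interval 0.53 to 0.83, adjusted p = 0.0186, limma). In DETCs it had 1273, 1173 and 1451 counts in WT and 2500 and 1814 in LC-/- libraries, again without overlap (0.72, SE 0.15, adjusted p = 0.0453). The KC call was lost without W1, W2, L1 or L3 (adjusted p 0.0669 to 0.0806) and the DETC call without W1, W2, W3 or L2 (0.0873 to 0.187), with log2 differences of 0.64 to 0.73 and of 0.49 to 0.95 when any 1 library was left out. Limma without trend (0.203) and quantile normalization (0.0745) likewise ended the DETC call. Over all genes, too, the KC calls fell in the omissions, from 775 higher and 267 lower with no library left out. Without W1, W2, L1 or L3, at most 10 genes were called higher and at most 9 lower. Without W3 the calls were 200 and 24, and without L2 they were 552 and 169. Applied to the KC value of Epcam, the keratinocyte marker median gave 893, 871 and 1104 counts for the DETC libraries W1 to W3, 2423 for L2 and 1486 for L3. Measured DETC values lay above these in all 5, and their order, with L2 highest, was also that of the KC-derived values among LC-/- libraries. The part of keratinocyte RNA in the DETC difference was not tested. The summed count of 14 hair follicle and sebaceous gland markers was 116229 to 126042 in WT KCs and 131234 to 135950 in LC-/- KCs. Within it, Plet1 alone had a mean of 20821 in WT and 37190 in LC-/- KCs. The median log2 difference of the 14 markers was -0.07, with 1 called higher and 0 lower. The part of hair follicle and sebaceous gland cells in the Epcam difference was not tested either.

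The Epcam promoter is shown because Epcam was the gene called in both populations. The 250 bases before its start (RefSeq, GRCm38.p6, chr17:87635729-87635978, plus strand) are printed 5′ to 3′. Capitals mark 2 E-box letters (CACCTG or, on the other strand, CAGGTG) at 187 and 19 bases before the start and a GC box (GGGCGG or CCGCCC) at 58 bases before it.
Epcam: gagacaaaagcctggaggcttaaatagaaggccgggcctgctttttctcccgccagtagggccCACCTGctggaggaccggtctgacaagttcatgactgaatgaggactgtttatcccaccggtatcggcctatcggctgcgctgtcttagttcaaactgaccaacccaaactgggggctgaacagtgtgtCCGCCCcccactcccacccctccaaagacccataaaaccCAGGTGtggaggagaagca
Among 32851 RefSeq windows of this length, 17.2% held these E-box letters and 32.7% these GC box letters, on either strand. The letters TGAGTCA (4.46% of windows) and AACCGGTT (0.116%) were also searched on both strands and were not in this window, and no searched letters overlapped each other in it.

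Bmp7 was the gene called lower in LC-/- KCs, with 597, 609 and 584 normalized counts in WT and 494, 500 and 492 in LC-/- libraries. The spread within each group was small, and the difference was -0.27 (SE 0.03, 95% interval -0.36 to -0.18, adjusted p = 0.0238, limma), or 1.21-fold. In DETCs Bmp7 had 268, 328 and 326 counts in WT and 245 and 254 in LC-/- libraries, a difference of -0.29 (SE 0.14, adjusted p = 0.294). The KC call was kept without L2 (adjusted p = 0.0421) and lost without any other library (0.0558 to 0.0909), while the difference stayed between -0.29 and -0.25. Calls over all genes also fell in each KC omission, as given for Epcam. The Bmp7 call was also lost with no filter (0.0761), with DESeq2 (0.0704) and in 1 fit over all 11 libraries (0.0904).

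Tgfb3 rose in DETCs, with 158, 255 and 232 normalized counts in WT and 406 and 407 in LC-/- libraries. The genotypes did not overlap, and the difference was 0.94 (SE 0.20, 95% interval 0.47 to 1.41, adjusted p = 0.0489, limma). The call was kept without the lowest library, W1 (0.74, adjusted p = 0.0416), and lost without W2 (0.0753), W3 (0.106), L2 (0.172) or L3 (0.0885). The Tgfb3 call was also lost with TMM (0.0507), quantile normalization (0.0657) and limma without trend (0.197). Over all genes, DETC calls fell from 452 higher and 62 lower to 342 and 28 without W1. They fell to 63 and 10 without W2, and to 42 and 0 without W3. Applied to the KC value of Tgfb3, the keratinocyte marker median gave 24.1 to 33.6 counts for the DETC libraries, and the part of keratinocyte RNA in the DETC difference was not tested. Its share of TGF-beta ligand per kilobase in DETCs was 5.21% to 7.01% in WT and 9.32% to 9.76% in LC-/- mice, while the Tgfb1 share was 92.6% to 94.4% and 89.8% to 89.9%. In KCs Tgfb3 had 177, 131 and 186 counts in LC-/- beside 165, 160 and 182 in WT libraries, a difference of -0.05 (SE 0.16) whose sign turned with quantile normalization (0.040).

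The other TGF-beta ligands did not pass the test. Tgfb1 had 953, 900 and 965 normalized counts in LC-/- KCs, inside the WT range of 798 to 1062, and 5561 and 5848 in LC-/- DETCs, above the WT range of 4271 to 5227 (0.24, SE 0.11, adjusted p = 0.275). Tgfb2 had 173 to 198 counts in LC-/- KCs and 147 to 185 in WT KCs (0.13, SE 0.11, adjusted p = 0.521). In DETCs it had 33.0 and 57.5 counts in LC-/- and 20.7 to 35.0 in WT libraries (0.74, SE 0.36, adjusted p = 0.316).

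Itgb6 had 1256, 1044 and 1358 normalized counts in LC-/- KCs, all above the WT values of 613, 536 and 956. The difference was 0.83 (SE 0.24, 95% interval 0.22 to 1.44) and did not pass the test (adjusted p = 0.105, limma). It passed in 4 of 16 alternatives. Adjusted p values were 0.00806 in edgeR, 0.0367 in DESeq2, 0.0102 with a minimum mean of 10 and 0.00204 with no filter. It passed in 0 of the 6 limma fits with 1 KC library left out (0.0528 to 0.264). In DETCs Itgb6 had 368 and 182 counts in LC-/- and 113, 75.1 and 204 in WT libraries, so the groups overlapped (1.10, SE 0.43, adjusted p = 0.214). The higher of these, in L2, was measured in the DETC library with the highest keratinocyte median. Itgb8 had 277, 139 and 246 counts in LC-/- KCs beside 247, 216 and 340 in WT KCs (-0.31, SE 0.32, adjusted p = 0.578). The level of Itgb6 per kilobase was 7.06 to 11.6 times that of Itgb8 in LC-/- KCs, above the 3.86 to 4.38 times of WT KCs in every library, and this ratio was not tested. Among single genes, 31.5% did not overlap between the KC genotypes. The highest ratio, 11.6, was that of L2, the KC library with the lowest Itgb8 count (139).

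The CSF1R ligands did not pass the test in either population. Il34 had 750, 1054 and 908 normalized counts in LC-/- KCs beside 1247, 1108 and 964 in WT KCs, and the groups overlapped (-0.30, SE 0.16, 95% interval -0.69 to 0.10, adjusted p = 0.293). Csf1 had 336, 364 and 303 counts in LC-/- KCs, all above the WT values of 271, 294 and 291 (0.23, SE 0.08, adjusted p = 0.174). The ratio of Il34 to Csf1 per kilobase was 6.02 to 8.09 in LC-/- KCs and 8.92 to 12.4 in WT KCs, which did not overlap, and it was not tested. Among single genes, 31.5% did not overlap between the KC genotypes either. In DETCs both ligands overlapped between genotypes. Il34 had 258 and 150 counts in LC-/- and 219 to 250 in WT libraries (adjusted p = 0.617), and Csf1 had 112 and 257 beside 87.3 to 218 (adjusted p = 0.831). Gas6 had 3684, 4358 and 3796 counts in LC-/- KCs and 3860 to 4307 in WT KCs (-0.07, SE 0.08, adjusted p = 0.620). In DETCs it had 934 and 750 in LC-/- and 653 to 747 in WT libraries (0.23, SE 0.12, adjusted p = 0.352).

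**Figure D4:**
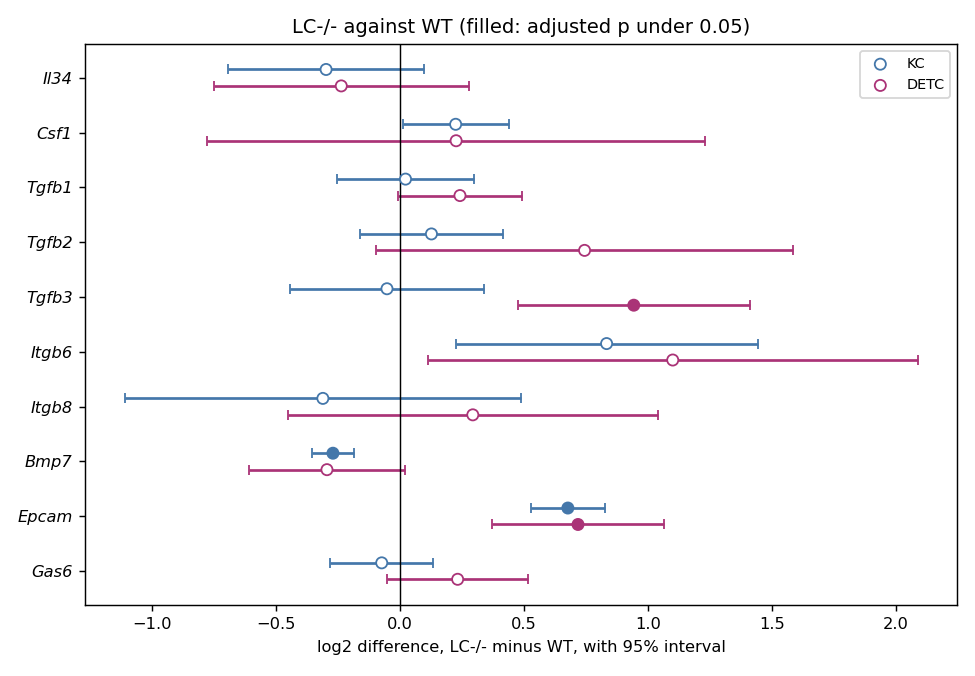
Log2 difference between LC-/- and WT (x axis, LC-/- minus WT, points with 95% intervals, filled where the adjusted p is under 0.05) for each gene in KCs and DETCs. Epcam is filled in both populations (0.68 and 0.72), Bmp7 in KCs (-0.27) and Tgfb3 in DETCs (0.94), and the Itgb6 intervals lie above 0 without passing the adjusted test.

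Whether the genotype difference itself differed between DETCs and KCs was tested with an interaction term. None of the 10 genes passed in limma (1 at an unadjusted p under 0.05) or in edgeR, and 1 passed in DESeq2, against 0.798% of all genes in limma. That gene was Tgfb3, with a difference of 0.99 between the populations (SE 0.27, 95% interval 0.41 to 1.58, adjusted p = 0.135 in limma, 0.132 in edgeR and 0.0259 in DESeq2). For Epcam the interaction was 0.04 (SE 0.17, 95% interval -0.33 to 0.41).

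The partners of each factor were followed in 6 lists, which were chosen with earlier results of these data known. Of all genes tested, 5.37% were called higher and 1.85% lower in LC-/- KCs. In LC-/- DETCs the shares were 3.13% and 0.43%, and they stand beside the counts of every list. Among 9 genes of the CSF1R axis, of which 6 were tested, 1 was called lower and 0 higher in LC-/- KCs. This was Tyrobp, a signalling adaptor of myeloid and lymphoid cells, with 4, 5 and 2 reads in WT and 0 in all LC-/- KC libraries. It passed the filter on low values only through the DETC libraries, where it had 109 to 225 reads, a count of 0 allows up to 3 reads, and edgeR did not call it (adjusted p = 0.0597), so no change is read from it. Csf1r, the receptor itself, had 3, 14 and 6 reads in WT KCs and 0, 4 and 0 in LC-/- KCs, with 7, 9 and 14 in WT and 0 and 3 in LC-/- DETCs, and it did not pass the filter on low values. Csf2, which encodes the myeloid growth factor GM-CSF, was a DETC transcript with 342 to 383 normalized counts in WT DETCs and 3.46 to 7.42 in WT KCs.

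Of 11 genes of TGF-beta latency and activation, 1 was called higher in LC-/- KCs and 1 lower in LC-/- DETCs. Furin, the protease that cleaves TGF-beta precursors, rose in KCs from 3575 to 3722 counts in WT to 4745 to 5424 in LC-/- libraries (0.49, SE 0.06, adjusted p = 0.0211). Itgb3, an integrin that pairs with the alpha-v chain, fell in DETCs from 350 to 373 counts to 186 and 245 (-0.76, SE 0.15, adjusted p = 0.0357). Thbs1, whose product can also activate latent TGF-beta, had 70027 to 84015 counts in WT and 110797 to 143729 in LC-/- KCs without passing the test (0.68, SE 0.18, adjusted p = 0.0914). Itgav, the alpha-v chain that the products of Itgb6 and Itgb8 need, was present in both populations at 2414 to 2842 counts in WT KCs and 3015 to 3632 in WT DETCs.

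Of 15 TGF-beta receptors and SMAD genes, of which 14 were tested, 2 were called in KCs and 1 in DETCs, all higher in LC-/- mice. The shares of all genes called higher were 5.37% in KCs and 3.13% in DETCs. Among all genes, too, more were called higher than lower (775 and 267 in KCs, 452 and 62 in DETCs). Tgfbr2, the ligand-binding receptor, had 2193 to 2776 counts in WT and 3339 to 3516 in LC-/- KCs (0.52, SE 0.10, adjusted p = 0.0435). Tgif1, a SMAD corepressor, had 5821 to 6233 and 7331 to 8326 (0.36, SE 0.06, adjusted p = 0.0383). Smad7, the inhibitory SMAD that TGF-beta induces, had 9700 to 10981 counts in WT and 13807 and 15005 in LC-/- DETCs (0.49, SE 0.10, adjusted p = 0.0453), while in KCs it had 832 to 914 and 907 to 972 (adjusted p = 0.280). Tgfbr2 had more counts in DETCs, at 7217 to 8569 in WT, the population whose libraries also had the higher Tgfb1 counts.

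Of 20 BMP ligands, receptors and effectors, of which 19 were tested, 1 rose and 0 fell in LC-/- KCs, and none passed in LC-/- DETCs (limma, 4 at an unadjusted p under 0.05). The gene was Smad1, a SMAD that transmits BMP signals, with 1356 to 1472 counts in WT and 1888 to 1971 in LC-/- KCs (0.45, SE 0.04, adjusted p = 0.0193). Bmp7 was called lower in the same comparison, and a link between Smad1 and Bmp7 was not tested. In WT mice 16 of these 19 were called higher in KCs and 2 in DETCs, beside 35.1% and 41% of all genes. The 5 genes of the TAM receptor list had no call in either population, and none had an unadjusted p under 0.05 (limma). Their receptors were mainly KC transcripts, with 1563 to 1922 counts of Axl, 713 to 908 of Tyro3 and 200 to 234 of Mertk in WT KCs and 419 to 608, 151 to 202 and 28.9 to 48.6 in WT DETCs.

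Of 9 genes whose products neighbour EpCAM in epithelia, 3 were called higher in LC-/- KCs and none lower, and none passed in LC-/- DETCs (limma, 3 at an unadjusted p under 0.05). The shares of all genes in KCs were 5.37% called higher and 1.85% called lower. Cdh1, which encodes E-cadherin, the adhesion molecule that ties LCs to KCs, had 23264 to 27585 counts in WT and 38475 to 39469 in LC-/- KCs (0.65, SE 0.09, adjusted p = 0.0268). St14, a membrane protease that cleaves EpCAM, had 1259 to 1462 and 1910 to 2313 (0.63, SE 0.09, adjusted p = 0.0275), and its inhibitor gene Spint1 had 919 to 1006 and 1164 to 1401 (0.39, SE 0.08, adjusted p = 0.0494). Cldn1, a tight junction gene, had 19469 to 20957 and 25010 to 32667 and did not pass (0.52, SE 0.12, adjusted p = 0.0616). Neither Epcam nor these partners had an interaction that passed the test (limma, 2 of the 9 partners at an unadjusted p under 0.05).

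The 9 partner genes called besides Tyrobp kept their direction when any 1 library was left out, but each lost its call in some omission. Calls over all genes also fell in each omission of a KC or a WT DETC library, as given for Epcam and Tgfb3. Smad1 lost it without L1, L3, W1 or W2 (adjusted p up to 0.0806), and Furin, St14 and Tgif1 without those or W3 (up to 0.126). Tgfbr2 lost it without any library but W3 (up to 0.139), and Cdh1 and Spint1 in KCs and Itgb3 and Smad7 in DETCs without any single library (up to 0.170). Limma without trend called no gene in DETCs (1554 higher and 853 lower in LC-/- at an unadjusted p under 0.05), so the Itgb3 (0.180) and Smad7 (0.189) calls ended there too, as did those of Tgfbr2 (0.0564), Tgif1 (0.0519) and Spint1 (0.0658) in KCs. Quantile normalization ended the calls of Tgfbr2 (0.0660), Tgif1 (0.123), Cdh1 (0.0549), St14 (0.0584) and Spint1 (0.108) in KCs and of Smad7 (0.226) in DETCs, and 1 fit over all 11 libraries those of Itgb3 (0.147) and Spint1 (0.234). Spint1 was also lost with TMM (0.0551) and a pseudocount of 0.5 (0.0501).

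**Figure D5:**
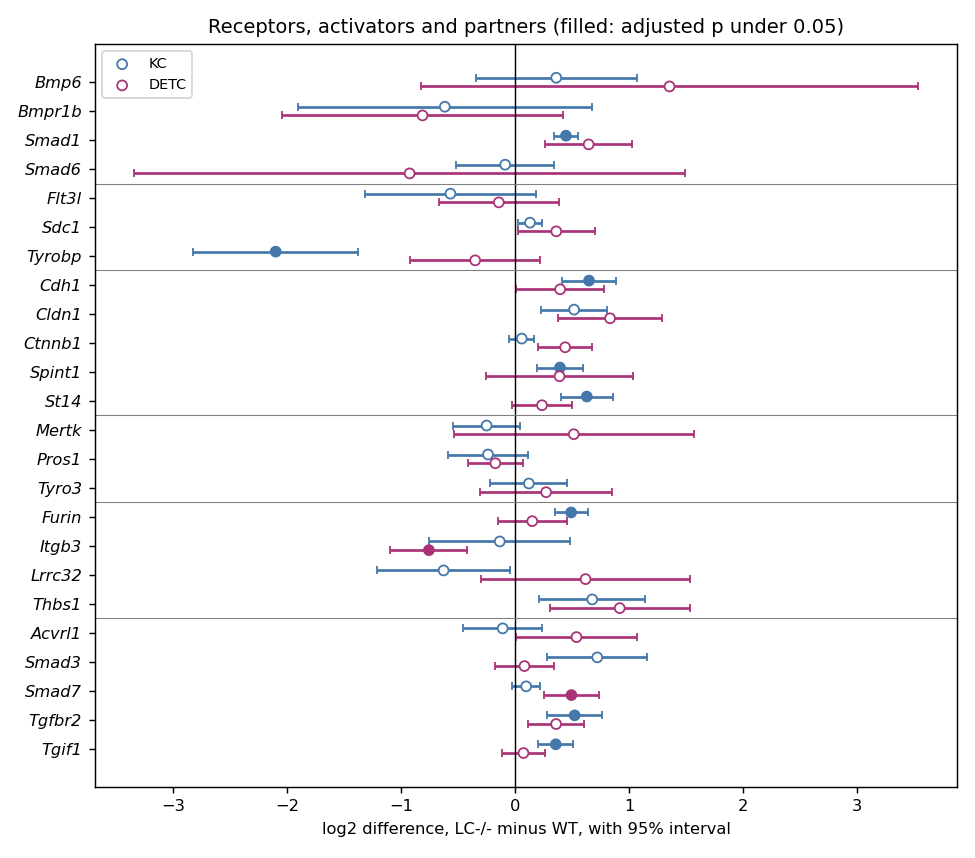
Log2 difference between LC-/- and WT (x axis, LC-/- minus WT, points with 95% intervals, filled where the adjusted p is under 0.05) for the named partner genes in KCs and DETCs, with grey lines between lists. Cdh1, St14 and Spint1 are filled in KCs, at 0.39 to 0.65, Tyrobp is filled in KCs on at most 5 reads, and Itgb3 (-0.76) and Smad7 (0.49) in DETCs.

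Across the 6 KC libraries, the log2 values most like those of Il34 were those of Uckl1 (Pearson r = 0.993), Krt80 (0.990) and Cyfip2 (0.990), among 9020 genes with a mean of at least 100. These r values are a description over 6 libraries, 3 of each genotype, which also differ in depth. The part of genotype or depth in them was not tested.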

How the data were processed

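RNA-seq values of 11 libraries were grouped by the population and genotype in their labels. The authors trimmed reads (cutadapt), aligned them to GRCm38 (hisat2), counted them per gene (featureCounts) and divided counts by DESeq2 median-of-ratios size factors; tool versions are not given in the sources used here. The deposited values are this signal, the normalized count. Dividing each by a step fitted to the lower values of its library gave whole reads for 100% of the nonzero values checked (tolerance 0.1 reads). High values were left out of this check and were rounded.

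Genes with a CPM above 1 in at least 2 libraries were tested with limma 3.58.1 (eBayes with trend) on log2 values, with a pseudocount of 1, within each population, within each genotype, and for the interaction. Because the deposited values are normalized, count tests served as alternatives on whole reads: edgeR 4.0.16 and DESeq2 1.42.0, the latter being the test of the study. Scripts were tested on simulated data. The labels name no animals, but the study describes each library as a separate animal, so replicates were taken as animals. For exon lengths, 52403 of 52550 identifiers were found in GENCODE mouse release 21. A count of 0 allows up to 3 reads, by counting error only.

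The members and lists were chosen with earlier results of these data known. Partner genes were named if called in a genotype comparison or among the 2 largest changes per list and population (mean at least 10). The 3 genes most like Il34 were added. Axl, Itgav, Csf1r and Csf2 were named after their values were seen, and some genes that the rule selects are shown only in the plot of partner genes. A gene of the EpCAM list is not reported here, nor counted in that list. Alternatives were pseudocounts of 0.5 and 8, no filter, a minimum mean of 10, TMM, quantile normalization, no trend, 1 fit over all libraries, a replicate block and omission of each library.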

Additional observations from a re-analysis of the deposited data

How the results depend on the processing

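In KCs 2 of the 10 genes were called, 3 with edgeR and with a minimum mean of 10 (Itgb6 beside Epcam and Bmp7), 2 with DESeq2 and with no filter (Itgb6 and Epcam), 1 in 1 fit over all 11 libraries and 0 to 2 when any 1 library was left out (at an unadjusted p under 0.05, 2 to 3 genes in the omissions without a call). In DETCs 2 were called, 1 with TMM (Epcam), 0 with quantile normalization (3 at an unadjusted p under 0.05), 0 with limma without trend (2) and 0 to 1 when any 1 library was left out (2 to 5 where none was called), while edgeR and DESeq2 each called 2. For the interaction 0 were called, 1 with DESeq2 (Tgfb3) and 0 in each omission. Adjusted p values in DETCs without trend were 0.197 for Tgfb3 and 0.203 for Epcam. Of all genes in DETCs, 452 were called higher and 62 lower in the main fit, 408 and 81 with TMM, and 178 and 85 with quantile normalization. EdgeR called 410 and 73, DESeq2 868 and 211, and limma without trend 0 and 0. For the interaction, DESeq2 called 236 positive and 76 negative differences over all genes, beside 89 and 26 in limma. Signs turned for Tgfb1 in KCs with quantile normalization (-0.025), for Tgfb3 in KCs with the same (0.040), and over the omissions of 1 library for Tgfb1 in KCs (-0.082 to 0.12), Tgfb3 in KCs (-0.15 to 0.10), Il34 in DETCs (-0.62 to 0.15), Csf1 in DETCs (-0.37 to 0.82), Itgb8 in DETCs (-0.23 to 0.82), Itgb8 between LC-/- populations (-0.011 to 1.03) and the Epcam interaction (-0.19 to 0.27). The cause of these changes was not tested. Population comparisons kept 9 calls in WT (9 to 10 in the omissions) and 9 in LC-/- mice (8 to 9), and Csf1 in LC-/- mice lost its call without trend (adjusted p = 0.0645) and in 4 omissions. With the label number as a replicate block, 9 genes were called in WT, 9 in LC-/- mice and 0 in the interaction (2 at an unadjusted p under 0.05). Deviations from group means of libraries with the same number correlated at -0.025, 0.113, 0.163, 0.175 and 0.147 for W1, W2, W3, L2 and L3. Only W3, L2 and L3 correlated best with their own number. In DETCs the deviations of L2 and L3 mirror each other, because that group holds 2 libraries. The check therefore cannot decide whether a shared number marks the same animal, and the main tests did not pair libraries by number. With 2 LC-/- DETC libraries, an omission leaves 1, which is assumed to vary like the others.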
